A study of Mus musculus with 6 samples.

Results

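The genes described here encode ATP-binding cassette (ABC) proteins of subfamilies A to G in 2 mouse melanoma lines. They were chosen by name alone: every non-control probe whose accession maps to a symbol made of Abc, a letter from a to g, a number and an optional further letter. The reference gene table lists 50 such genes, and 49 of them had a probe (all but Abca16), out of 20659 genes with a probe on the array. These 49 genes had 67 probes, with 33 genes on 1 probe, 15 on 2 and Abcc5 on 4. One line was B16-F1, which comes from the widely used B16 tumour of C57BL/6 mice, and the other was D5.1G4, which the series text takes as the reference. Cells of both lines were untreated and were grown for 24 h in the same serum-supplemented medium to a confluence of 75-95%. Total RNA of each line was hybridised to 3 one-colour Agilent mouse arrays. Nothing in the labels says whether the 3 samples of a line came from separate cultures, so the p-values reflect only how far these samples vary, and that variation may be technical.

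ABC proteins bind and hydrolyse ATP at paired nucleotide-binding domains, and most use it to move a substrate across a membrane. Subfamily A and several members of subfamilies B and G carry lipids and sterols, other members of B, C and G pump drugs and conjugated metabolites out of the cell, subfamily D serves peroxisomes and lysosomes, and subfamilies E and F have no membrane domain and act on ribosomes. In melanoma and other tumours the family is known mainly for drug efflux.

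The scanner software marked 53.4% to 62.0% of an array's spots as well above background, and the arrays' 75th percentiles, at 838.9 to 2034.6 intensity units, were brought to a common level. The scan identifiers in the file headers place B16-F1 replicates 2 and 3 on slide 1, B16-F1 replicate 1 with D5.1G4 replicates 2 and 3 on slide 2, and D5.1G4 replicate 1 on slide 3. All 9 melanocyte markers examined, among them Mlana, Tyr, Dct and Sox10, stood well above background on every array. Of 6 fibroblast markers, 5 were above background on no array and Lum was on 1, and the endothelial genes Cdh5 and Tek and the hepatocyte genes Alb, Ttr and Apob were above it on none, while the hepatocyte gene Cyp2e1 was above it on all 6. The leukocyte marker Ptprc was above background on 2 B16-F1 arrays and 0 D5.1G4 arrays and Cd14 was called higher in B16-F1 (at least 1.35-fold, fitted log2 difference 1.55, adjusted p = 0.0303 by limma), a call lost in 8 of 18 alternatives, among them each fit that left out a B16-F1 array (1.43 to 1.71) and normexp background correction (0.63). The leukocyte genes Cd3e, Csf1r and Itgam, and the endothelial genes Pecam1 and Kdr, were above background on all 6. The part of such RNA in the results below was not tested.

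Below, a level is the log2 of the processed spot signal minus the 75th percentile of its array, so 0 is a bright gene and about -7 is the floor of the arrays. Levels of different genes come from different probes and are not compared with each other. A difference is B16-F1 minus D5.1G4. Values for a line are given in the order of its replicates 1, 2 and 3. Testing needed a probe marked well above background on 3 or more of the 6 arrays, and a gene was called if limma gave an adjusted p of 0.05 or less, with adjustment over all 18442 features tested, and a fold of at least 2.

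Of the 49 ABC genes, 32 were tested and 5 were called. Abcb9 and Abca12 were higher in B16-F1, and Abca5, Abcc2 and Abcg2 were lower. These 5 genes make 15.6% of the tested ABC genes, against 15.2% of all features tested, and so the family as a whole was not called more often than the array. By direction, 2 of 32 were higher, where 6.28% of all features were, and 3 of 32 were lower, where 8.89% were. The median difference of the tested ABC genes was 0.02, and that of all features was 0.00. Among 31 tested ABC genes measured on every array, the 3 values of one line lay wholly above or below those of the other in 16, while this held for 50.7% of all such features.

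**Figure D1:**
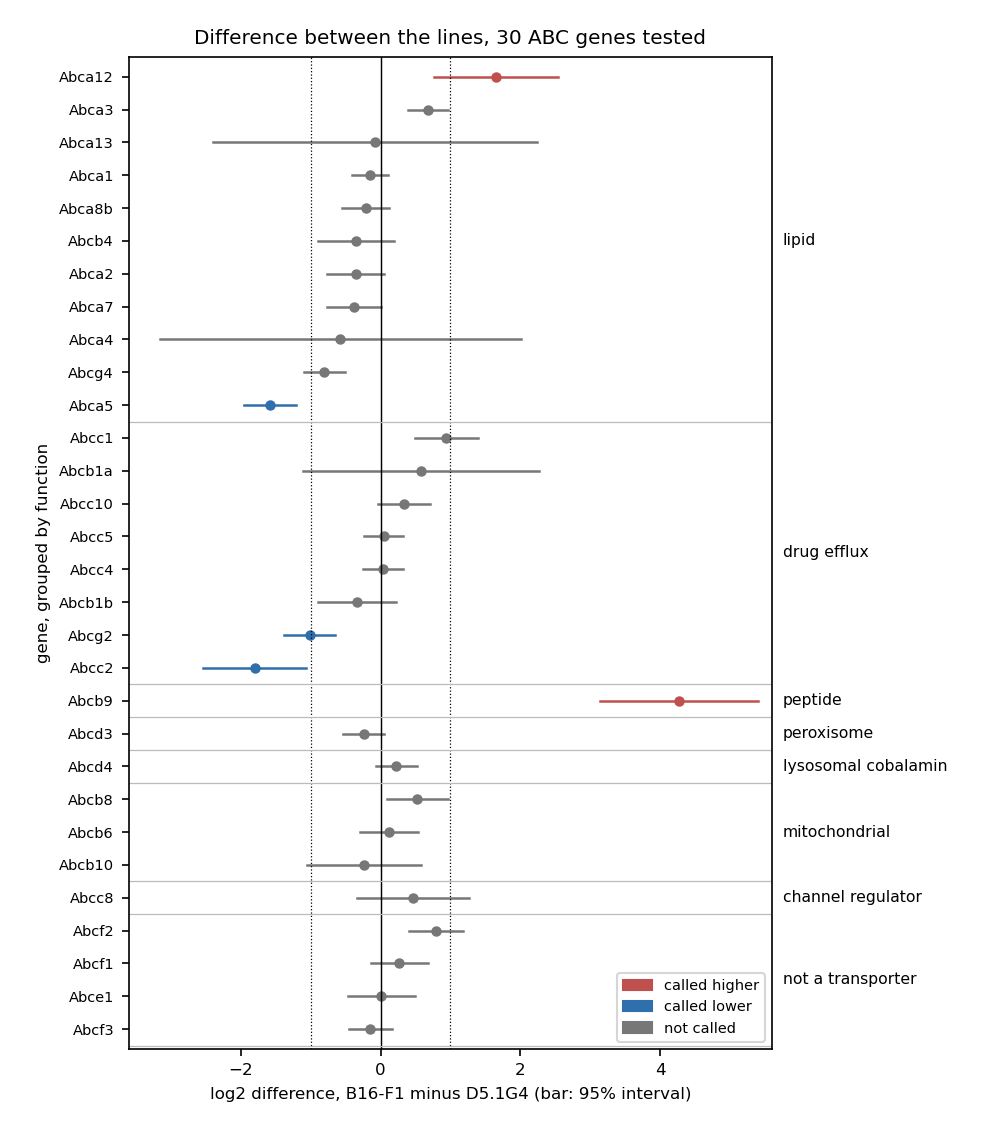
Log2 difference (B16-F1 minus D5.1G4, horizontal axis) of 30 tested ABC genes, grouped by function, with the 95% interval of the fit as a bar and dotted lines at a 2-fold change. Abcb9 stands at 4.27 and the other 4 called genes lie between -1.80 and 1.65, while the remaining 25 run from -0.80 to 0.94.

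A promoter of each of the 5 called genes is shown so that a reader can see the sequence in front of a start site. For Abcg2, only the start with a marked motif is shown. Each line gives 150 bases before an annotated start from RefSeq on the GRCm38.p6 build, written along the gene's strand. Capitals mark the E-boxes CACGTG and CATGTG, read on both strands (CATGTG reads CACATG on the other strand), which proteins of the MITF and TFE family of melanocytes and lysosomes are known to bind. CACATG and CATGTG can overlap, and overlapping matches are each counted.
Abcb9 (chr5:124095799-124095948, minus strand): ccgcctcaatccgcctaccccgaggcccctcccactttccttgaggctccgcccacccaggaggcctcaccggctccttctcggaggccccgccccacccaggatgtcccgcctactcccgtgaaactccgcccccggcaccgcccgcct
Abca12 (chr1:71414911-71415060, minus strand): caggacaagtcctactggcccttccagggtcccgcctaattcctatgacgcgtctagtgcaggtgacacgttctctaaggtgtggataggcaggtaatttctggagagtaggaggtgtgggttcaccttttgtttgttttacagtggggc
Abca5 (chr11:110337717-110337866, minus strand): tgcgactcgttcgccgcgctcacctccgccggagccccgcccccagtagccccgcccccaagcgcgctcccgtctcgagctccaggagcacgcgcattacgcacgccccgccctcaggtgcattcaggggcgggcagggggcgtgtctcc
Abcc2 (chr19:43782158-43782307, plus strand): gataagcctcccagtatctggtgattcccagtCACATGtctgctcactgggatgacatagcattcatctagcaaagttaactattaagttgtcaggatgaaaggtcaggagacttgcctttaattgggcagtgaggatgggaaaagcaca
Abcg2 (chr6:58640396-58640545, plus strand): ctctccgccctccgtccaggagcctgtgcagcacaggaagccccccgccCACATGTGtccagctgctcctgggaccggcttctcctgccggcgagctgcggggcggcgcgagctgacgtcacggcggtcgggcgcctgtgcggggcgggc
An E-box stood 118 bases before the start of Abcc2, and a pair of overlapping matches began 101 and 99 bases before the start of Abcg2 that is shown, and RefSeq's other 2 Abcg2 starts had none. Abcb9, Abca12 and Abca5 had neither motif in the 250 bases searched. Over the family, 37 of the 49 genes matched a promoter entry, and 11 of their 44 windows of 250 bases (25.0%) held an E-box, against 17.6% of all 32851 windows. The same 250 bases held 17 CpG dinucleotides for Abcb9 and 25 for Abca5, 23 for the Abcg2 start that is shown, 1 for Abcc2 and 5 for Abca12. The other 2 Abcg2 starts had 3 and 10. The median was 6 over all windows and 12.5 over all ABC windows. It was 17 over the windows of tested ABC genes and 9 over those of ABC genes above background on no array. A match is a description of the letters and not of binding.

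Peptide transport gave the family's largest difference. Abcb9 encodes a half-transporter of the lysosomal membrane, related to the TAP proteins, that carries peptides from the cytosol into lysosomes. Its level was 0.00, -0.29 and -0.55 in B16-F1 and -4.97, -5.20 and -3.47 in D5.1G4. All 3 B16-F1 arrays were thus far above all 3 D5.1G4 arrays, of which only replicate 3 was well above background. In RNA of a whole culture, fewer cells with a transcript and less of it per cell cannot be told apart. In processed signal, B16-F1 ran from 1111 to 1446 units and D5.1G4 from 22.8 to 88.2. The difference was 4.27 (SE 0.46, n = 3 arrays in each line), a 19.3-fold higher signal in B16-F1, with an adjusted p of 0.00121 by limma. This fold and p use D5.1G4 readings that were not well above background on replicates 1 and 2. The 3 B16-F1 arrays alone met the detection rule for Abcb9, the line where it was high. Raising each D5.1G4 array to at least its lowest signal well above background gave 18.8-fold. With normexp background correction the log2 difference was 3.01, a smaller fold than either of these. Without D5.1G4 replicate 3 the difference was 4.81, and within slide 2 it was 4.34. The call held under every alternative in which Abcb9 could be tested, with differences between 3.01 and 4.81, but Abcb9 was read by 1 probe.

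**Figure D2:**
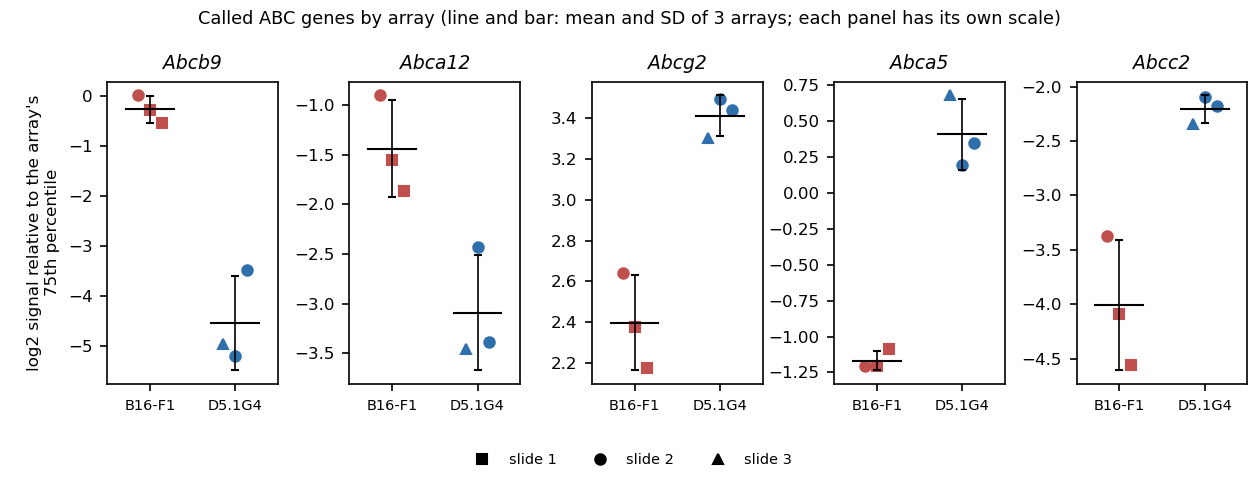
Level of the 5 called ABC genes on each array (vertical axis, log2 signal relative to the array's 75th percentile, a separate scale in each panel), with marker shape for the slide and a line and bar for the mean and SD of 3 arrays. In each panel the 3 B16-F1 arrays and the 3 D5.1G4 arrays do not overlap, and B16-F1 replicate 1 (slide 2) is the highest B16-F1 array for Abcb9, Abca12, Abcg2 and Abcc2.

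The peptide transporters that carry other names did not share this difference. Tap1 and Tap2 form the transporter that feeds peptides to MHC class I molecules in the endoplasmic reticulum. Tap1 differed by -0.14 (SE 0.13, adjusted p = 0.469 by limma, n = 3). Tap2 was called lower in B16-F1 (-1.01, SE 0.22, adjusted p = 0.0160). This call was lost in 7 of 19 alternatives: when slide was a block (-0.83, adjusted p = 0.0857), with normexp background correction (-0.63, adjusted p = 0.260), with the replicate block (adjusted p = 0.0761), within slide 2 (adjusted p = 0.0727), without the slide 1 arrays (-0.70, adjusted p = 0.186), without the third B16-F1 array (-0.84) and without the third D5.1G4 array (adjusted p = 0.0518). Of 9 tested genes of peptide loading onto class I, only Erap1 was called, where 15.2% of all features were. Erap1, which trims peptides in the endoplasmic reticulum, differed by 1.06 (adjusted p = 0.00293 by limma). Its difference was under the minimum fold when the replicate 2 array of B16-F1 (0.96) or of D5.1G4 (0.98) was left out. The call was also lost with quantile normalization (0.98) and with normexp (adjusted p = 0.315 by limma). The list's median difference was 0.04.

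Genes grouped here as lipid and sterol transporters, a label given without proof of each one's substrate, were 22 of the 49. Of these, 11 were tested, 1 was higher (6.28% of all features were), 1 was lower (8.89% were) and 9 were not called. Their median difference was -0.35. Another 9 were above background on no array: Abca6, Abca14, Abca15, Abca17, Abcb11, Abcg1, Abcg3, Abcg5 and Abcg8. These include the bile salt export pump Abcb11 and the intestinal and hepatic sterol exporter pair Abcg5 and Abcg8, which are known from liver and gut.

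Abca12, which loads glucosylceramides into the lamellar granules of the epidermis, was the lipid transporter higher in B16-F1. Its level was -0.90, -1.55 and -1.87 in B16-F1 and -3.46, -2.43 and -3.39 in D5.1G4. The lines did not overlap, and D5.1G4 replicate 2 came nearest to B16-F1. The difference was 1.65 (SE 0.37, n = 3), a 3.14-fold higher signal, with an adjusted p of 0.0158 by limma. The call was lost without D5.1G4 replicate 3 (adjusted p = 0.0588), without the arrays of slide 1 (2.19, adjusted p = 0.0513), within slide 2 (2.01, adjusted p = 0.0546) and with normexp (1.31, adjusted p = 0.0784), each time with B16-F1 still the higher line. Of the 4 keratinocyte markers, Krt5 and Krt14 were above background on all 6 arrays with differences of 0.24 and -0.22 and were not called, Cdh1 was called lower in B16-F1 (a call lost with normexp, at -0.33, and with the authors' values, at -1.65) and Epcam was above background on no array. Their part in the Abca12 result was not tested.

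Abca5, an endosomal and lysosomal protein linked to sterol handling, was lower in B16-F1. Its level was -1.21, -1.20 and -1.09 in B16-F1 and 0.68, 0.19 and 0.35 in D5.1G4. Every B16-F1 array lay more than 1 log2 unit below every D5.1G4 array. The difference was -1.57 (SE 0.15, n = 3), a 2.98-fold lower signal in B16-F1, with an adjusted p of 0.000807 by limma. A further probe gave -2.31 (SE 0.35, adjusted p = 0.00373 over all probes tested), and was well above background on 1 B16-F1 array and all 3 D5.1G4 arrays. The call held under every alternative, and Abca5 was the only called member with a second probe to compare.

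Abca5 lies in a run of A subfamily genes on chromosome 11, in the order Abca8b, Abca8a, Abca9, Abca6 and Abca5 with no other protein-coding gene between neighbours in the reference table. Abca8b was above background on all 6 arrays and differed by -0.21 (SE 0.14, adjusted p = 0.282 by limma, n = 3). Abca6 was above background on no array, Abca9 on 1 and Abca8a on 2, and none of these was tested. Abca8b was thus the only neighbour of the run that could be tested, and it was not called.

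Abca1 and Abcg1 are known as targets of the liver X receptors, and only Abca1 was bright enough to be tested. Abca1, which passes cholesterol and phospholipid to apolipoprotein A-I, was measured within narrow limits: -0.67, -0.64 and -0.65 in B16-F1 and -0.40, -0.54 and -0.57 in D5.1G4. Its difference was -0.15 (95% interval -0.40 to 0.11, adjusted p = 0.321 by limma), so an effect of 2-fold lay outside the interval. Abcg1 was above background on no array. Abcg4, its relative in the nervous system, was at -2.03, -1.72 and -1.92 in B16-F1 and at -1.10, -1.06 and -1.09 in D5.1G4, without overlap. Its difference of -0.80 (SE 0.12, adjusted p = 0.00392 by limma, n = 3) passed the test but not the minimum fold, while a further probe gave -1.27 (adjusted p = 0.00347) and was called. With normexp the probe that stood for Abcg4 gave -0.58 and did not pass the test (adjusted p = 0.176 by limma). Of 11 tested partners of sterol efflux, among them the receptors Nr1h2 and Nr1h3, 10 were not called. Apoe was called higher (1.66, SE 0.20, adjusted p = 0.00164 by limma), and 15.2% of all features were called.

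Abca3, which fills the surfactant granules of the lung, was at 2.16, 2.11 and 1.95 in B16-F1 and at 1.29, 1.43 and 1.46 in D5.1G4. Its difference of 0.68 (SE 0.12, adjusted p = 0.00621 by limma, n = 3) passed the test but not the minimum fold, and its neighbour on chromosome 17, Abca17, was above background on no array. With normexp Abca3 differed by 0.59 and did not pass the test (adjusted p = 0.0616 by limma). Abca7, Abca2, Abcb4 and Abca8b differed by -0.38, -0.36, -0.35 and -0.21 and did not pass the test. Abca4 and Abca13 differed by -0.57 and -0.08 with SEs of 1.06 and 0.95, and each was above background on the same 3 arrays, B16-F1 replicates 2 and 3 and D5.1G4 replicate 1. For these 2 genes a difference of 2-fold in either direction lay within the interval.

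Genes grouped here as drug and conjugate efflux pumps, again a label without proof of each one's substrate, were 12 of the 49. Of these, 8 were tested, 0 were called higher (6.28% of all features were) and 2 were called lower (8.89% were), Abcc2 and Abcg2. Their median difference over the 8 was 0.04. The test is limma's, and of the 6 not called only Abcc1 had an adjusted p of 0.05 or less. Abcb5, Abcc6 and Abcc12 were above background on no array, and Abcc3 was on 1 (B16-F1 replicate 2).

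Abcc2, the pump that moves glutathione and glucuronide conjugates into bile, was lower in B16-F1. Its level was -3.37, -4.09 and -4.56 in B16-F1 and -2.35, -2.10 and -2.17 in D5.1G4. The D5.1G4 arrays lay close together and the B16-F1 arrays were spread below them. The difference was -1.80 (SE 0.30, n = 3), a 3.48-fold lower signal, with an adjusted p of 0.00572 by limma. With normexp background correction it was -0.93 and no longer called (adjusted p = 0.254), and within slide 2 it was -1.24.

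Abcg2, the breast cancer resistance protein, which exports drugs, urate and porphyrins, was also lower in B16-F1. Its level was 2.64, 2.37 and 2.18 in B16-F1 and 3.30, 3.49 and 3.44 in D5.1G4. The lines did not overlap, and the gene was above background on every array. The difference was -1.01 (SE 0.15, n = 3), a 2.02-fold lower signal, with an adjusted p of 0.00389 by limma. This size sits at the minimum fold, and 8 of 19 alternatives put the gene on the other side of the call rule, with differences down to -0.77. With slide as a block, and within slide 2, the difference was -0.82 and the call ended. It also ended with quantile normalization (-0.92) and with the authors' deposited values (-0.92). Leaving out the third B16-F1 array gave -0.90, leaving out the second D5.1G4 array gave -0.97, and leaving out the third D5.1G4 array put it just short of the minimum fold. An adjusted p of 0.05 or less remained in 7 of the 8, and the exception was the fit without the arrays of slide 1 (adjusted p = 0.0756).

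Abcc1, which exports glutathione conjugates and is known from drug-resistant tumours, was at 1.89, 1.84 and 1.46 in B16-F1 and at 0.51, 0.87 and 0.98 in D5.1G4. The lines did not overlap. Its difference of 0.94 (SE 0.19, adjusted p = 0.0107 by limma, n = 3) lay just under the minimum fold, and it passed both limits without B16-F1 replicate 3 (1.08) or without D5.1G4 replicate 3 (1.04). With the replicate block Abcc1 no longer passed the test (adjusted p = 0.0553 by limma).

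The P-glycoprotein genes, which encode the best known drug pump, were not called. Mice have a pair of them, Abcb1a and Abcb1b, next to each other and to Abcb4 on chromosome 5. Abcb1b was above background on all arrays and differed by -0.34 (SE 0.23, adjusted p = 0.300 by limma, n = 3), with overlapping lines. Abcb1a was near the floor, above background on B16-F1 replicates 2 and 3 and D5.1G4 replicate 1, and differed by 0.58 (SE 0.69). The 2 genes are close in sequence and the probe sequences were not used here, so a signal shared between them cannot be told apart. Abcc4 and Abcc10 differed by 0.03 and 0.34 and were not called.

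Abcc5, an exporter of cyclic nucleotides and other anions, gave different readings from its 4 probes, of which 1 was called. The brightest probe was at 0.72, 0.55 and 0.46 in B16-F1 and at 0.53, 0.50 and 0.55 in D5.1G4, a difference of 0.05 (SE 0.11, adjusted p = 0.768 by limma, n = 3). A further probe was at -3.43, -3.30 and -3.12 in B16-F1 and at -1.11, -1.63 and -1.90 in D5.1G4, a called difference of -1.74 (SE 0.22, adjusted p = 0.00204 over all probes tested). The remaining 2 probes gave 1.21 and -0.56 and were not called. A single value for Abcc5 therefore depends on the probe that is read.

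**Figure D3:**
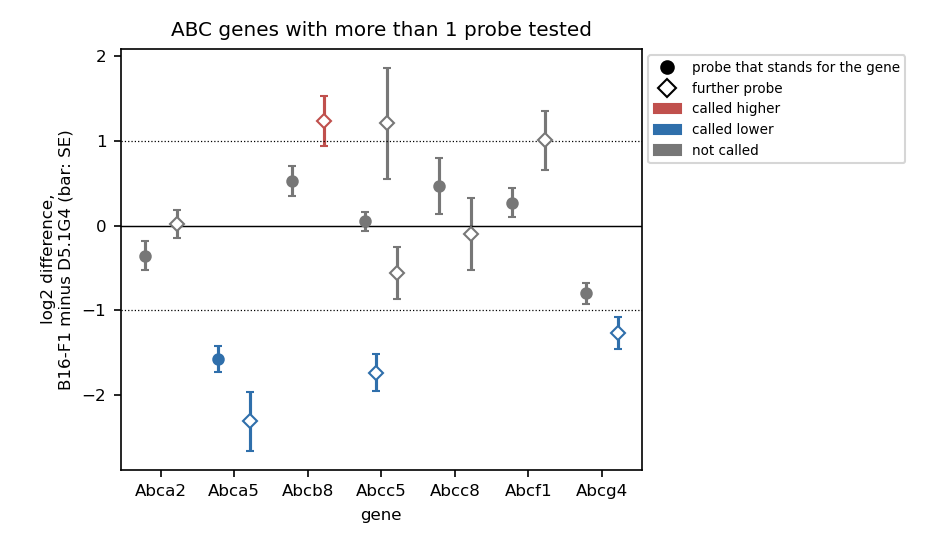
Log2 difference (B16-F1 minus D5.1G4, vertical axis, bar for the SE) of each tested probe of 7 ABC genes with more than 1 tested probe. Both Abca5 probes are called lower, at -1.57 and -2.31, while the Abcc5 probes run from -1.74 to 1.21.

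Subfamily D includes importers of fatty acyl-CoA into peroxisomes. Abcd3, which imports branched-chain and dicarboxylic acyl-CoA, was at 3.89, 3.82 and 3.67 in B16-F1 and at 3.93, 4.16 and 4.02 in D5.1G4. Its difference of -0.24 (adjusted p = 0.179 by limma, n = 3) was not called and had a 95% interval of -0.54 to 0.06, which leaves out a 2-fold change. Abcd2, an importer of very long-chain acyl-CoA, was above background on no array. Of 26 tested peroxisome genes, assembly factors and oxidation enzymes together, 1 was called, where 15.2% of all features were. This was the branched-chain acyl-CoA oxidase gene Acox2. It was above background on no D5.1G4 array, and its signal in B16-F1 was at least 2.64-fold higher. The fitted log2 difference was 3.52 (adjusted p = 6.76e-05 by limma). With normexp this log2 difference was 1.30, a smaller fold than that bound, and the call was lost (adjusted p = 0.172 by limma). The list's median was 0.07.

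Abcd4, which releases vitamin B12 from the lysosome together with Lmbrd1, differed by 0.22 (SE 0.12, adjusted p = 0.204 by limma, n = 3). All 8 cobalamin pathway genes were tested and 0 were called, where 15.2% of all features were. An unadjusted p of 0.05 or less by limma was reached by 3 of the 8 and by 44.9% of all features.

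Among the mitochondrial half-transporters, Abcb8, known for iron handling, was at 2.41, 2.37 and 2.20 in B16-F1 and at 1.89, 1.46 and 2.05 in D5.1G4, without overlap. Its difference of 0.53 (SE 0.18, adjusted p = 0.0651 by limma, n = 3) did not pass the test, while a further probe gave 1.23 and was called (adjusted p = 0.0190). Abcb6, a porphyrin transporter, differed by 0.12, and Abcb10, needed for heme synthesis, by -0.24 on 2 arrays of each line, because its spots on B16-F1 replicate 1 and D5.1G4 replicate 2 were set to missing. In the list of heme and iron-sulfur synthesis, 16 genes were tested and 1 was called, where 15.2% of all features were. This was Urod, an enzyme of the heme pathway, which was lower (-1.03, adjusted p = 0.00178 by limma). Its difference was under the minimum fold when the third B16-F1 array (-0.97) or the second D5.1G4 array (-0.97) was left out. The same held with quantile normalization (-0.94) and with the authors' values (-0.93).

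Abcc8 and Abcc9 encode the sulfonylurea receptors, which regulate ATP-sensitive potassium channels and are not known as pumps. Abcc8 differed by 0.47 (SE 0.33, adjusted p = 0.318 by limma, n = 3), with overlapping lines. Abcc9 and the channel pore genes Kcnj8 and Kcnj11 were above background on no array, and so was Cftr, the ABC family's chloride channel.

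Abce1 and the 3 Abcf genes, which work in ribosome recycling and translation, were above background on all arrays. Among these 4 genes 0 were called, against 15.2% of all features. Before adjustment, limma's p was at or below 0.05 for 1 of the 4 and for 44.9% of all features. Abce1 was at 4.19, 4.14 and 3.88 in B16-F1 and at 3.68, 4.34 and 4.15 in D5.1G4, with a difference of 0.01 (95% interval -0.47 to 0.50), which leaves out a 2-fold change. Abcf2 was at 1.72, 1.58 and 1.76 in B16-F1 and at 0.62, 1.11 and 0.96 in D5.1G4, without overlap, and its difference of 0.79 (SE 0.16, adjusted p = 0.0112 by limma, n = 3) passed the test but not the minimum fold. With the replicate block Abcf2 did not pass the test (adjusted p = 0.0507 by limma). Abcf1 and Abcf3 differed by 0.27 and -0.15. A further Abcf1 probe gave 1.01 and was not called (adjusted p = 0.0666 by limma over all probes tested). Of 9 tested genes of ribosome recycling and initiation, 1 was called, where 15.2% of all features were. This was Eif2s3x, higher by 1.14 (adjusted p = 0.0341 by limma), but 9 of 19 alternatives undid the call. These included the mean over its probes (0.17), leaving out the third B16-F1 array (0.82) and leaving out any D5.1G4 array (0.94 to 1.25).

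Among the genes of the xenobiotic response, 14 were tested, 2 were called higher and 1 lower, with a median of 0.13. Over all features, 6.28% were called higher and 8.89% lower. Nr1i2, the pregnane X receptor, which regulates several drug transporters in liver, was at -7.69, -5.74 and -6.47 in B16-F1 and at 1.75, 2.05 and 1.97 in D5.1G4. It was above background on no B16-F1 array and was at least 191-fold lower there. The fitted log2 difference was -8.56 (adjusted p = 0.00011 by limma, n = 3). With normexp its fitted difference was -5.41 (adjusted p = 0.00955), a smaller fold than that bound. Nqo1, a quinone reductase, was above background on no D5.1G4 array and its B16-F1 signal was at least 7.47-fold higher. Its fitted log2 difference was 5.08 (adjusted p = 3.83e-05 by limma). With normexp this log2 difference was 2.30, a smaller fold than that bound. Slc7a11, the cystine importer that feeds glutathione synthesis, was higher by 1.57 (SE 0.21, adjusted p = 0.00245 by limma).

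Detection of the dimmer ABC genes differed between arrays on different slides. Slide 1 held only B16-F1 and slide 3 only D5.1G4, so slide and line cannot be told apart between them. On the arrays of slide 1, 35 and 33 of the 49 genes were well above background, with 62.0% and 61.7% of all spots. Slide 3 had 31 genes and 53.9% of spots. The 3 arrays of slide 2 had between 26 and 28 genes and 53.4% to 54.4% of spots. In all, 26 genes were above background on every array, 14 on none (Abcg5 with 1 spot missing) and 9 on some. Some were above background only on arrays outside slide 2: Abca4, Abca13 and Abcb1a on B16-F1 replicates 2 and 3 and D5.1G4 replicate 1, Abca8a on the 2 arrays of slide 1, and Abca9 and Abcc3 on B16-F1 replicate 2. Within slide 2 none of these 6 genes was above background in either line. Abcb10 was among the 9 through its missing spots, and Abcb9 was the only member above background on all arrays of one line and missed on arrays of the other without a missing spot. No member was above background on all 3 arrays of one line and on none of the other. Abca8a, Abca9 and Abcc3 were above background in B16-F1 only, but the bound on each fold was under 1, and no fold is given.

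**Figure D4:**
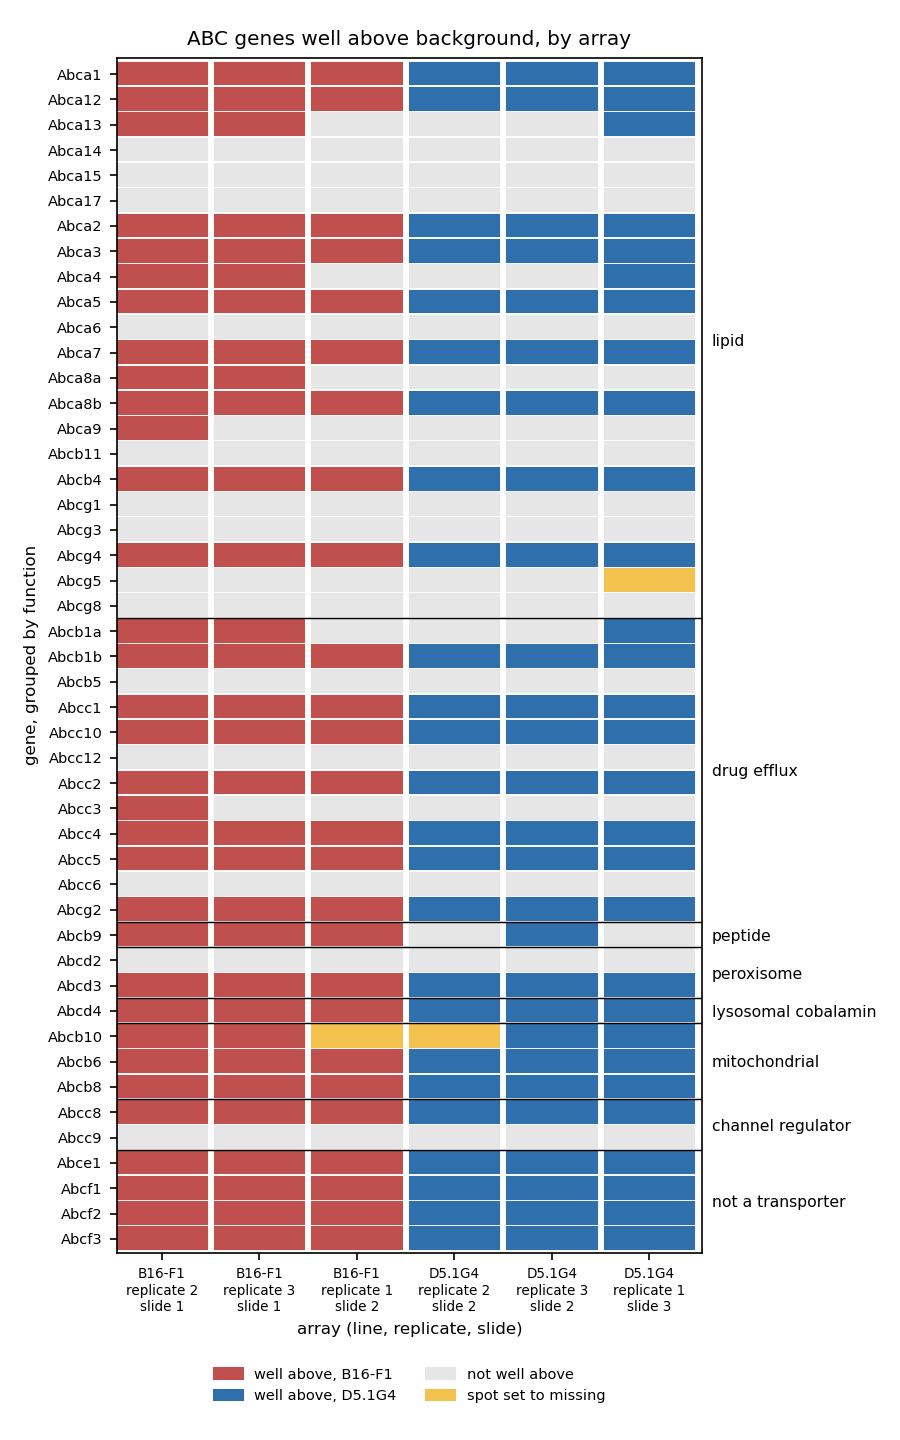
Each of 47 ABC genes (rows, grouped by function) on each of the 6 arrays (columns, ordered by slide), coloured where its spot was well above background and yellow where the spot was set to missing. Abcb9 is coloured on all 3 B16-F1 arrays and 1 D5.1G4 array, and 6 dim genes are coloured only on arrays outside slide 2.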

How the data were processed

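Spot intensity was produced with Agilent Feature Extraction 11.0.1.1, per the file headers and the submitters' processing notes. The processed intensity is background-subtracted and detrended within an array, per the file headers. The deposited flags (0 or 1, unit other) mark spots that are well above background, non-uniform, outlying or saturated, per the file headers. The authors' deposited table holds log2 values for which no normalization is named in the sources used here. All per-sample columns were mapped.

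Here log2 was taken and the array's 75th percentile of the 43020 non-control spots subtracted. Spots flagged non-uniform or outlying (0.67% to 1.58% per array) were left out as missing, no spot was saturated, and spots of a probe were averaged. Accessions were matched without version to the GRCm38.p6 RefSeq table (27234 of 39429 probes, 69.1%), used for names and gene order. The probe with the highest mean over the 6 arrays stood for a gene. The lines were compared with limma 3.58.1 in R 4.3.3 (lmFit and eBayes, line as the only term, 2-sided, Benjamini-Hochberg), which was tested on simulated data. A fold against a line with no array above background is a bound, "at least", against the higher of the probe's own signal and the array's lowest signal well above background. An adjusted p given with such a bound belongs to the fitted difference, which uses readings near the floor, and does not test the bound. Such a gene passed the detection rule only through the line where it was high. Arrays with the same scan identifier are taken as one slide. The number of arrays limits the precision.

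Members, functional groups and lists were chosen with earlier results of these data known. The values of 2 members are not reported here, though counts over the family hold them. The other members are named or counted, called members are given in full, and of each other list up to 3 called genes are named, with Tap1, Tap2, Cftr and Nr1i2 whatever their values. Other settings tried were quantile normalization, normexp (offset 50, on the median signal because the files hold no mean signal), the authors' values, other filters and probe rules, slide and replicate blocks, other moderation, unadjusted p and leaving out arrays.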

Additional observations from a re-analysis of the deposited data

How the results depend on the processing

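The ABC genes called higher numbered 2, and 1 with normexp, when detection on all 6 arrays was required (which leaves Abcb9 untested), within slide 2 and without the arrays of slide 1. Leaving out each array in turn gave 2 to 3 higher and 2 to 3 lower, with Abcc1 added without B16-F1 replicate 3. All features called fell from 2799 to 1251 with normexp and ran from 2532 to 3375 with 1 array left out. Of 609 values of the 32 tested ABC genes under the alternatives, 589 kept their side of the call rule, 13 lost a call (8 of them Abcg2, 4 Abca12 and 1 Abcc2), 6 gained one and 1 reversed, the Abcc5 probe at -1.74. Among these values, 30 from 12 genes changed sign without being called on either side. The slide block left 2 higher and 2 lower, without Abcg2, and 2587 over all features. The replicate block changed no call among the 32 (2 higher, 3 lower, and 2583 over all features). It ended that of Tap2 (adjusted p = 0.0761 by limma). Same-numbered arrays had deviations from their line's mean correlated at -0.39, -0.03 and -0.30. The layout of the slides also enters these correlations, so they cannot show whether same-numbered samples were paired. In the fits on slide 2 and without slide 1, the single B16-F1 array is assumed to vary like D5.1G4. Signal near background limits Abca4, Abca13 and Abcb1a. The causes of lost calls were not tested.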
